A study of Saccharomyces cerevisiae with 12 samples.

Results

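The 33 genes described here encode the subunits of the yeast 26S proteasome, 14 of its core particle and 19 of its regulatory particle, among 6002 nuclear protein-coding genes. They were taken by name, and every CpG site from 500 bp upstream to 500 bp downstream of their start codons (R64 annotation) was read, 1005 of the 354107 nuclear sites. The data are maps of CpG methylation made by occupancy measurement via DNA methylation and sequencing (ODM-seq). Formaldehyde-crosslinked chromatin was treated with the CpG methyltransferase M.SssI, which methylates DNA that is not covered by nucleosomes or other factors, and 5-methylcytosine was then read by nanopore sequencing. A high percentage marks an uncovered CpG and a low one a covered CpG. Each percentage averages over the molecules of a culture, so a site covered in some cells and a site covered part of the time cannot be told apart.

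All cells were strain BY4741 carrying ABF1-aa-V5 (clone A9, a single anchor-away clone), in which rapamycin removes the chromosomally encoded Abf1 from the nucleus. All were grown to log phase in YNB medium without leucine and then given rapamycin at 8 µg/mL for 75 min. They differed in the pRS315 plasmid. The no Abf1 cells carried the empty plasmid, the cells labelled EM Shuffle a plasmid for a minimal Abf1, and the WT Abf1 cells a plasmid for wild-type Abf1. By the study's methods, the minimal Abf1 keeps the DNA-binding domain and a shortened second disordered region whose essential motif is shuffled, lacks the first disordered region, and carries an added SV40 nuclear localization signal and a Flag tag. It therefore differs from the WT Abf1 plasmid by more than the shuffled motif. Each construct had 2 biological replicates from independent transformants, and each preparation was sampled after 3 h and 4 h of methylation, which gave 4 libraries per construct and 12 in all. Library values are listed throughout as replicate 1 at 3 h and 4 h, then replicate 2 at 3 h and 4 h.

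The proteasome degrades ubiquitin-tagged proteins. Its core particle is a barrel in which rings of beta subunits, 3 of them proteolytic, lie between rings of alpha subunits that gate the entrance. The regulatory particle caps the barrel: a ring of Rpt ATPases unfolds substrates, further base subunits bind ubiquitin, and the lid carries the deubiquitinase Rpn11. In yeast the subunit genes are dispersed over the chromosomes and share an activator, Rpn4, which binds the proteasome-associated control element (PACE) in their promoters. Abf1 and Reb1 are general regulatory factors, abundant DNA-binding proteins that help to keep promoters free of nucleosomes.

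The sequences below are examples from the 16 Abf1 matches of the members, chosen by the result at their flanks. They are read in the orientation of the motif from the RefSeq R64 (sacCer3) genome. Capitals mark the match to the Abf1 consensus, which ends in a CpG. In the first set, the DNA beside the match was less methylated without Abf1.
SEM1: attatattATCATTATTTACGaaactagt
RPN8: tattcctaATCACTTATTACGaaatttga
PRE10: atagctaaATCACGTTTAACGaagatttc
RPN13: aataatatATCACGAAATACGgaggaatt
They lie at chrIV:1201982-1202010 (+ strand) for SEM1, chrXV:817129-817157 (- strand) for RPN8, chrXV:1018891-1018919 (- strand) for PRE10 and chrXII:965680-965708 (+ strand) for RPN13, all between the start codon and the gene upstream. In the second set, the flanking DNA did not pass the test.
RPN6: ggtatatcATCACAATATACGatataaat
RPT1: gcctacacGTCATGGCAGACGattaaaat
RPN7: ttccccatATCATAACCGACGgcgcgtaa
PUP1: aatgaaaaATCACTAGCAACGgaagtgca
Their positions are chrIV:286854-286882 (- strand) for RPN6, chrXI:173820-173848 (+ strand) for RPT1, chrXVI:742237-742265 (+ strand) for RPN7 and chrXV:631997-632025 (+ strand) for PUP1.

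The third set holds the Reb1 matches (TTACCCG, in capitals) of 3 of the 5 promoters that were called more methylated without Abf1. The others, RPT3 and PRE1, have no Reb1 match. Of the 9 members with a Reb1 match in the promoter window, 3 were called, all higher. Of all 417 tested windows with such a match, 7.91% were called, 27 higher and 6 lower. The run from RPT5 is given in the direction of the gene and also holds its PACE match (GGTGGCAAA, in capitals).
RPN5: tcgccccaataTTACCCGtcttgtatgtg
PUP1: atggccctaatTTACCCGcttttacaata
RPT5: agTTACCCGgccaatatgtGGTGGCAAAaa
These runs lie at chrIV:190741-190769 (+ strand) for RPN5, chrXV:631934-631962 (+ strand) for PUP1 and chrXV:544846-544875 (+ strand) for RPT5. A match is a description of the letters and not a measured binding site.

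The 12 libraries held 13253872 to 37756743 CpG calls in the nuclear genome, with a median of 32 to 94 calls per site. The authors' correction factors, by which the percentages below are scaled to the genome average of WT Abf1, were 1.04 for no Abf1, 0.871 for EM Shuffle and 1 for WT Abf1. A corrected value can therefore exceed 100 in the libraries labelled EM Shuffle. Read coverage over the ABF1 gene, relative to the DNA beside it, was 0.821 to 1.06 in the no Abf1 libraries and 0.901 to 1.10 in those labelled EM Shuffle, against 1.78 to 1.92 in the WT Abf1 libraries. Over the DNA-binding domain, which the minimal Abf1 keeps, it was 0.823 to 1.07 in no Abf1, 0.892 to 1.13 in EM Shuffle and 1.82 to 1.93 in WT Abf1. Over the 500 bp upstream of ABF1 it was 0.909 to 1.13 in no Abf1, 0.961 to 1.16 in EM Shuffle and 1.83 to 1.98 in WT Abf1. Raised coverage, as a plasmid copy gives, was thus seen in WT Abf1 alone and gives no sign of the plasmid named in the EM Shuffle label. Whether reads of that altered insert would align at this locus was not tested, and those libraries are named by label throughout. They also form a batch of their own in the labels, the other constructs sharing another, so batch and construct cannot be told apart for them. Coverage of chromosome XI, which carries RPT1 and ABF1, was 1.97 and 2.02 times the nuclear median in EM Shuffle replicate 2 and 1.16 times in replicate 1. The ABF1 coverage of EM Shuffle replicate 2 is thus relative to raised coverage, and a plasmid copy would raise that ratio less than in WT Abf1.

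With WT Abf1 most proteasome promoters were more methylated, hence less covered, than the typical promoter. The promoter window of 250 to 51 bp upstream of the start codon held 3 to 11 CpG sites and 205 to 1935 calls per replicate, and all 33 windows were testable. The mean over the member windows was 58.7 ± 1.7% in WT Abf1 (SD, n = 2 replicates here and throughout), beside 49.9 ± 1.5% over the 5846 tested windows of all genes, and 25 of the 33 members lay above the median window (50.3%). The highest was RPN6, a scaffold of the lid, with 80.1, 85.1, 80.4 and 80.8% in the WT Abf1 libraries. The lowest was RPN10, a ubiquitin receptor, with 34.9, 37.0, 34.2 and 35.2%. The RPN10 window shares 119 bp with that of the divergent gene NBL1 and reaches 31 bp into it. In all, 21 members are divergent from the gene upstream and 12 follow it in tandem, and 13 windows share bases with the window of that gene.

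The 3 motifs were common in these windows and lay in a regular order. On either strand, the Abf1 consensus matched in 14 of 33 members, against 11.4% of all promoter windows of this length. PACE matched in 27 members (81.8%, against 1.05% of all windows) and Reb1 in 9 (27.3%, against 6.98%). No member window held both an Abf1 and a Reb1 match, 23 held one of them (18.0% of all genes did) and 10 held neither. PACE was missing from SEM1, RPN13, RPN8, PUP1, PRE5 and RPN10. Match centres lay 130 to 379 bp upstream of the start codon for the 16 Abf1 matches within 500 bp, 80 to 179 bp for PACE and 129 to 358 bp for Reb1. In all 21 pairs of an Abf1 or Reb1 match with a PACE match, PACE was nearer the start codon, 18 to 228 bp away.

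**Figure D1:**
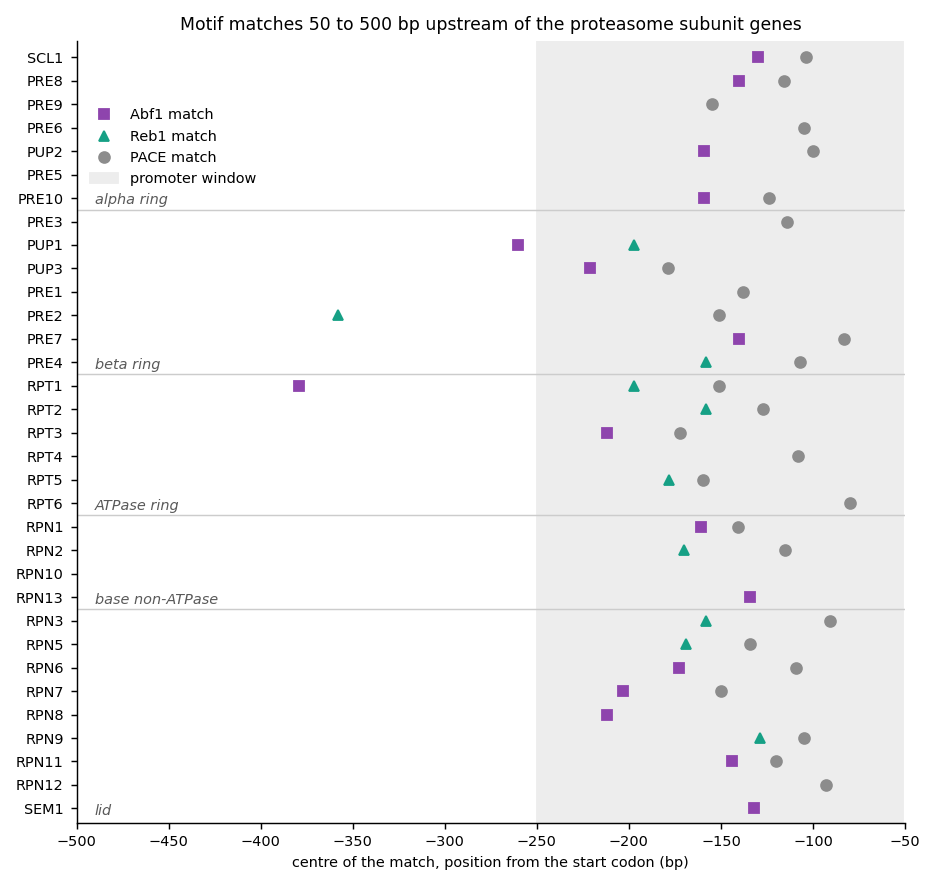
Positions of the centres of Abf1, Reb1 and PACE matches upstream of the 33 genes (horizontal axis, bp from the start codon), grouped by ring or subcomplex, with the promoter window shaded. In each of the 21 pairs the PACE match lies between the Abf1 or Reb1 match and the start codon.

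Methylation differed between no Abf1 and WT Abf1 at 13 of the 33 proteasome promoters, in both directions. Of these, 8 were less methylated, hence more covered, in no Abf1 than in WT Abf1 and 5 were more methylated. Among all 5846 windows 11.6% were called, 7.51% lower and 4.11% higher. The 4 libraries of no Abf1 did not overlap the 4 of WT Abf1 in 12 members, against 16.3% of all windows. The change is given as a log2 odds ratio of methylation relative to each construct's genome average, tested by a quasi-binomial model fitted over all windows and called at an adjusted p under 0.05. The offset that this centring applies is 0.09 for no Abf1 against WT Abf1, and without it the calls were 6 higher and 6 lower (11.7% of all windows were then called). The median over the members was 0.04, beside -0.00 over all windows.

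**Figure D2:**
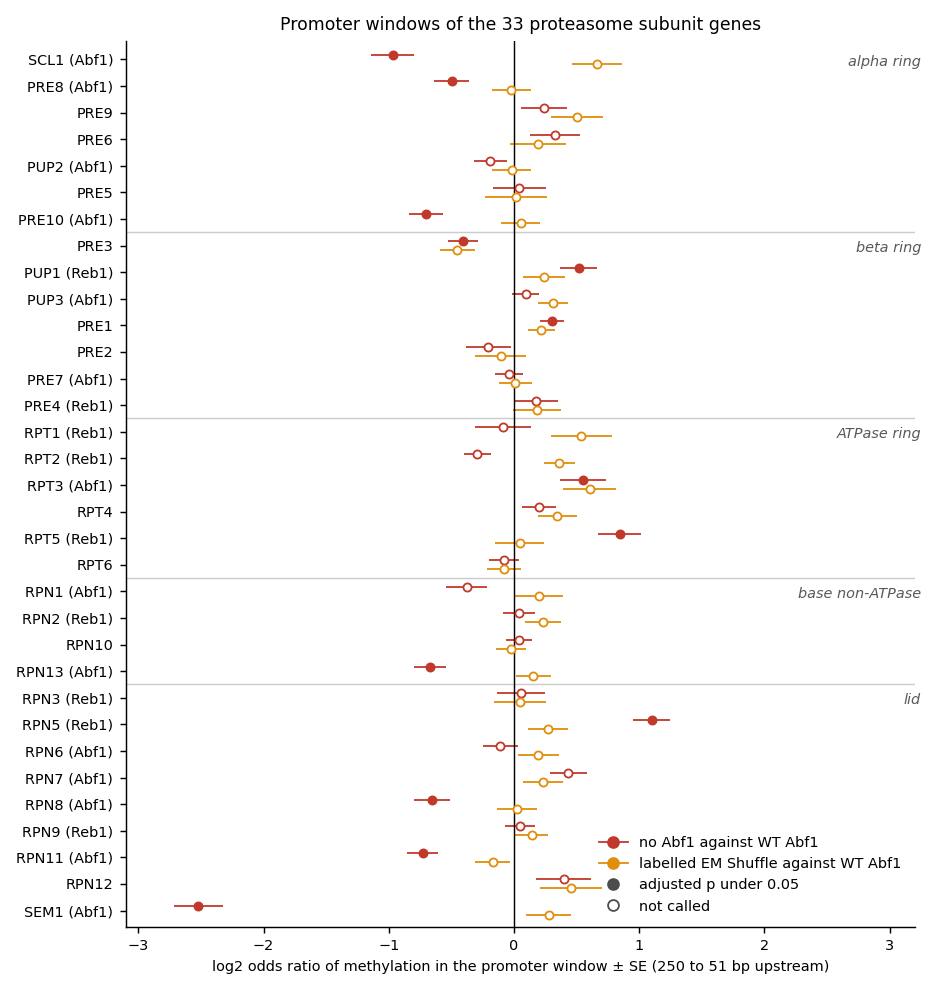
Log2 odds ratio of promoter methylation (± SE) for each of the 33 genes in no Abf1 and in the libraries labelled EM Shuffle, each against WT Abf1, with filled symbols for adjusted p under 0.05. SEM1 lies lowest at -2.52 and RPN5 highest at 1.10 in no Abf1, and no EM Shuffle symbol is filled.

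The fall was deepest at SEM1, which encodes a small acidic protein of the lid. It had 14.0, 10.0, 12.8 and 11.1% methylation in the no Abf1 libraries, against 47.9, 47.4, 39.6 and 41.1% in the WT Abf1 libraries. Every no Abf1 library lay far below every WT Abf1 library, and the log2 odds ratio was -2.52 ± 0.19 (SE, adjusted p = 1.22e-09). The next lid gene, RPN11, encodes the deubiquitinase that removes ubiquitin chains from substrates and stood at 51.4, 50.6, 49.5 and 49.2% in no Abf1, against 63.7, 68.3, 59.4 and 62.8% in WT Abf1. Again the libraries separated, with a log2 odds ratio of -0.73 ± 0.12 (SE, adjusted p = 0.000168). RPN8 encodes the inactive partner with which Rpn11 pairs, and its window had 33.4, 28.1, 30.2 and 34.5% in no Abf1 and 45.6, 44.2, 35.6 and 45.4% in WT Abf1. Its lowest WT Abf1 library, replicate 2 at 3 h, came close to the highest no Abf1 library without overlapping it, and the odds ratio was -0.66 ± 0.15 (SE, adjusted p = 0.00268) on the log2 scale. These 3 were the lid genes that fell, of 9.

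In the base, RPN13, a ubiquitin receptor, was the only promoter of the 4 non-ATPase genes that passed the test. Its values were 41.9, 48.6, 43.3 and 40.7% in no Abf1 and 55.9, 59.0, 54.3 and 54.4% in WT Abf1, without overlap, and the log2 odds ratio reached -0.67 ± 0.13 (SE, adjusted p = 0.000525). RPN1, a scaffold that binds ubiquitin-like domains, had 48.6, 43.6, 37.8 and 55.9% in no Abf1 and 49.0, 61.7, 49.3 and 57.1% in WT Abf1 and was not called (-0.38 ± 0.17, adjusted p = 0.180).

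In the core particle 4 promoters fell, 3 of them of alpha ring genes. SCL1 had 40.1, 38.4, 41.7 and 45.5% in no Abf1, against 60.1, 64.8, 56.2 and 54.1% in WT Abf1. This was the largest fall in the core particle, at -0.97 ± 0.17 (SE, adjusted p = 0.000266). PRE10 gave 4 nearly equal values in no Abf1, 48.9, 49.3, 50.3 and 49.6%, against 64.6, 68.0, 54.6 and 62.5% in WT Abf1; the odds ratio was -0.70 ± 0.14 (SE, adjusted p = 0.000681) on the log2 scale. In PRE8 the libraries overlapped, with 51.9, 60.1, 47.2 and 54.0% in no Abf1 and 62.2, 66.8, 61.8 and 57.7% in WT Abf1, although the window was called (-0.50 ± 0.14, adjusted p = 0.0196). PUP2, also of the alpha ring and with an Abf1 match, had 34.0, 35.0, 33.2 and 37.2% in no Abf1 and 41.1, 41.4, 34.7 and 35.0% in WT Abf1 and was not called (adjusted p = 0.511). In the beta ring, 1 gene fell, PRE3, which encodes the subunit with caspase-like activity. It had 44.4, 47.4, 44.9 and 48.8% in no Abf1 and 56.1, 58.3, 51.5 and 50.7% in WT Abf1, without overlap (-0.41 ± 0.12, SE, adjusted p = 0.0298), and it was the only one of the 8 fallen promoters without an Abf1 match in its window.

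The 5 promoters that were more methylated in no Abf1 belong to the lid, the ATPase ring and the beta ring. RPN5, a lid scaffold gene, had 73.4, 76.5, 75.9 and 72.2% in no Abf1, against 57.3, 62.7, 61.7 and 61.5% in WT Abf1. No library overlapped, and its log2 odds ratio of 1.10 ± 0.15 (SE, adjusted p = 7.48e-06) was the highest of the members. RPT5, whose ATPase inserts its tail into the alpha ring, had 53.1, 59.5, 43.0 and 49.0% in no Abf1 and 40.9, 37.8, 34.9 and 37.7% in WT Abf1. The no Abf1 replicates differed by more than those of WT Abf1, yet all lay above them (0.85 ± 0.17, SE, adjusted p = 0.00115). For PUP1, which encodes the subunit with trypsin-like activity, the values were 69.9, 67.4, 69.3 and 67.4% in no Abf1 and 63.7, 65.6, 54.0 and 67.2% in WT Abf1, again without overlap (0.52 ± 0.15, SE, adjusted p = 0.0229). RPT3, another ATPase gene, had 57.1, 66.8, 53.7 and 60.7% in no Abf1 and 56.1, 45.6, 49.2 and 55.2% in WT Abf1, which overlapped, and stood at the threshold (0.55 ± 0.18, adjusted p = 0.0499). PRE1 of the beta ring had 59.4, 59.8, 58.5 and 59.2% in no Abf1 and 51.2, 59.2, 55.3 and 56.6% in WT Abf1 (0.30 ± 0.10, SE, adjusted p = 0.0418). RPN5, RPT5 and PUP1 have a Reb1 match in the window, RPT3 an Abf1 match and PRE1 neither. The RPT3 window holds 4 CpG sites, at -218, -213, -211 and -209 bp from the start codon, and all lie within its Abf1 match.

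**Figure D3:**
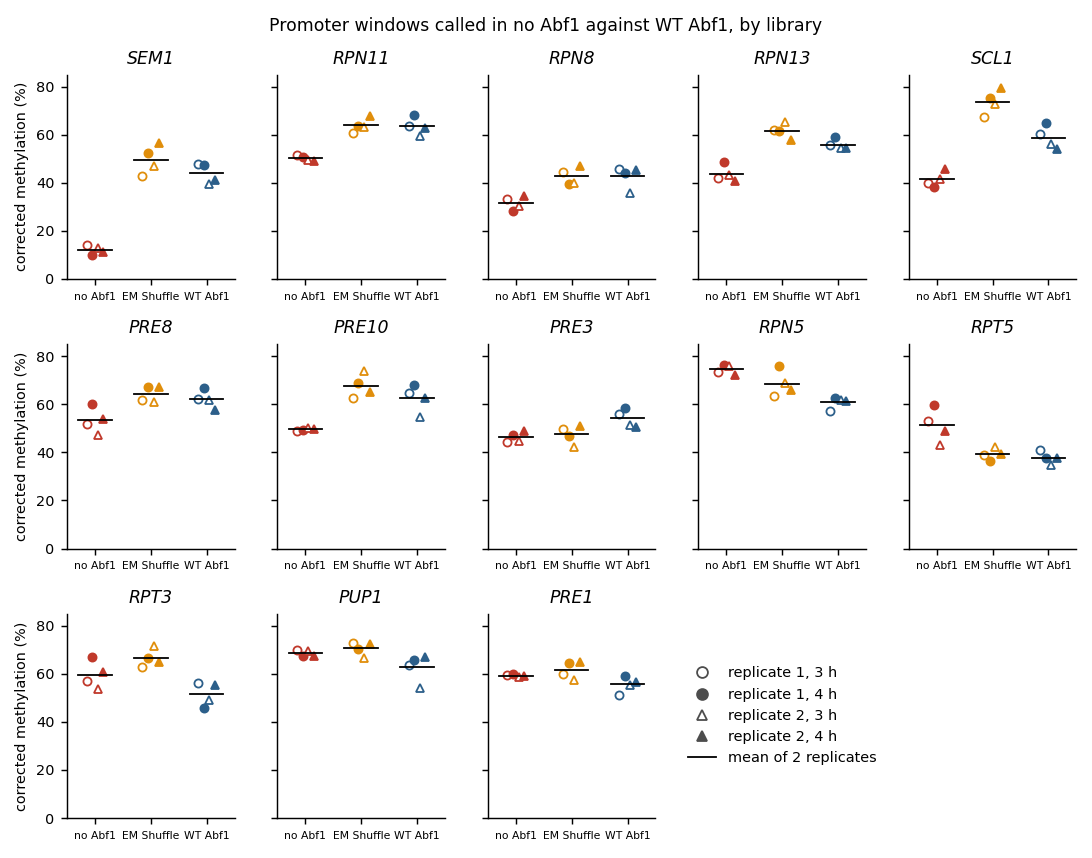
Corrected methylation (%) of the 13 called promoter windows in each library of no Abf1, EM Shuffle (by label) and WT Abf1, with open symbols for 3 h, filled for 4 h, circles for replicate 1 and triangles for replicate 2, and bars for the mean of 2 replicates. SEM1 separates most widely, with no Abf1 libraries at 14.0, 10.0, 12.8 and 11.1% and WT Abf1 libraries at 47.9, 47.4, 39.6 and 41.1%.

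Of the 14 members with an Abf1 match in the window, 7 fell, 1 rose and 6 were not called. The 1 that rose, RPT3, has no CpG site in the window outside its match. Of all 681 tested windows with such a match, 35.7% fell and 12.3% rose. The mean over the 14 was 46.6 ± 0.27% in no Abf1 and 54.5 ± 2.5% in WT Abf1, and over the other 19 it was 62.9 ± 0.13% in no Abf1 and 61.9 ± 1.2% in WT Abf1. The 4 remaining members with a match were PRE7, PUP3, RPN6 and RPN7. PRE7, of the beta ring, had 51.6, 46.0, 50.9 and 45.7% in no Abf1 and 51.7, 52.5, 44.5 and 52.2% in WT Abf1 (-0.04 ± 0.11, adjusted p = 0.904). PUP3, another beta ring gene, had 43.1, 48.7, 47.4 and 47.7% in no Abf1 and 46.3, 45.1, 45.0 and 46.9% in WT Abf1 (0.09 ± 0.11, adjusted p = 0.728). The lid genes RPN6 and RPN7 had differences of opposite sign and did not pass the test. RPN6 had 80.9, 77.3, 76.3 and 76.4% in no Abf1 and 80.1, 85.1, 80.4 and 80.8% in WT Abf1 (-0.11 ± 0.14, adjusted p = 0.781), and RPN7 had 55.9, 55.8, 57.1 and 60.8% in no Abf1 and 48.1, 52.5, 48.1 and 59.3% in WT Abf1 (0.43 ± 0.15, adjusted p = 0.0540).

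The calls at SEM1, RPN11 and RPN5 held under all 17 alternative settings. The count of 13 depended on the setting, as did the count over all windows. It was 8 without no Abf1 replicate 1 (7.53% of all windows called), 8 without WT Abf1 replicate 1 (8.3%), 7 at 3 h alone (7.08%), 7 at 4 h alone (5.41%) and 6 with limma and every site weighted equally (4.23%). Without no Abf1 replicate 1 the calls at RPT5 (0.45), PUP1 (0.48), RPT3 (0.33), PRE1 (0.24) and PRE3 (-0.41) were lost, with the log2 odds ratio then found in parentheses. Without WT Abf1 replicate 1 those at PUP1 (0.55), RPT3 (0.46), PRE1 (0.17), PRE3 (-0.34) and PRE8 (-0.49) were lost. PRE8 was also lost without no Abf1 replicate 2 (-0.29) and without WT Abf1 replicate 2 (-0.55).

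Single CpG sites showed where in each promoter the change lay. Positions are given in bp from the first base of the start codon. Apart from the CpGs that end Abf1 matches, single sites were not tested, and "fell" and "rose" are used of sites whose 4 libraries per construct did not overlap. At SEM1, the sites on both sides of the Abf1 match lost most of their methylation, with 14.1 ± 1.8% in no Abf1 and 47.8 ± 6.7% in WT Abf1 at -153, 10.998 ± 2.8% in no Abf1 and 53.3 ± 1.7% in WT Abf1 at -106, and 14.8 ± 0.16% in no Abf1 and 62.1 ± 5.4% in WT Abf1 at -102. The CpG within the match, at -127, was low in both, 6.38 ± 1.1% in no Abf1 and 7.64 ± 3.3% in WT Abf1. Downstream, at -9, the order was opposite, with 17.1 ± 2.6% in no Abf1 and 8.84 ± 2.9% in WT Abf1.

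RPN8 also fell beside its match, but there the CpG in the match rose. Methylation at -162 was 38.6 ± 0.26% in no Abf1 and 69.9 ± 0.54% in WT Abf1, whereas the CpG in the match at -207 had 46.3 ± 1.9% in no Abf1 and 20.2 ± 2.0% in WT Abf1. Nearer the gene, the site at -42 had 50.7 ± 4.1% in no Abf1 and 17.8 ± 8.6% in WT Abf1. Sites that fell and sites that rose thus lay within the same upstream region. PRE10 had 35.1 ± 4.2% in no Abf1 and 72.4 ± 8.6% in WT Abf1 at -175, beside its match, and 32.1 ± 0.12% in no Abf1 and 8.24 ± 0.19% in WT Abf1 at -291, farther away. In the coding sequence of RPN13, the site at 99 fell, with 31.4 ± 3.2% in no Abf1 and 58.0 ± 3.1% in WT Abf1. Over its whole start codon window RPN13 was not called (35.9 ± 2.1% in no Abf1 and 41.9 ± 4.5% in WT Abf1, adjusted p = 0.400), and farther into the gene it was higher in no Abf1 (21.0 ± 1.4% in no Abf1 and 14.3 ± 1.1% in WT Abf1, adjusted p = 0.0414).

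At SCL1, RPN11 and PRE8, sites beside the match were also lower. SCL1 had 45.2 ± 3.7% in no Abf1 and 68.7 ± 8.8% in WT Abf1 at -153 and 35.4 ± 1.6% in no Abf1 and 68.0 ± 2.8% in WT Abf1 at -100, on either side of it. In RPN11 the sites at -176 (44.3 ± 1.1% in no Abf1 and 69.5 ± 6.5% in WT Abf1) and -135 (68.2 ± 4.7% in no Abf1 and 83.3 ± 2.8% in WT Abf1) were lower, and so were those within the match, while the site at 45 in the coding sequence was higher (38.0 ± 1.0% in no Abf1 and 15.8 ± 0.93% in WT Abf1). PRE8 changed sign across its start codon, with 53.7 ± 3.9% in no Abf1 and 76.3 ± 7.5% in WT Abf1 at -168, but 37.8 ± 1.9% in no Abf1 and 16.7 ± 3.0% in WT Abf1 at 23. PRE3, which has no match, fell at -187 (43.0 ± 2.5% in no Abf1 and 55.4 ± 5.2% in WT Abf1) and at -54 (48.3 ± 2.5% in no Abf1 and 59.2 ± 4.3% in WT Abf1). At RPN1, whose window was not called, the site at -127 fell (45.4 ± 1.7% in no Abf1 and 69.6 ± 5.8% in WT Abf1) and the site at -288 rose (23.9 ± 2.3% in no Abf1 and 6.89 ± 3.0% in WT Abf1). PRE7 had the same mixture: its libraries did not overlap at -163 (64.8 ± 1.7% in no Abf1 and 77.5 ± 3.3% in WT Abf1) nor, in the other direction, at -142 inside the match (20.0 ± 0.49% in no Abf1 and 7.91 ± 0.26% in WT Abf1).

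At RPN5 and RPT5 the gains lay to 1 side of the Reb1 match. In RPN5 the sites that rose were upstream of it, with 66.8 ± 1.9% in no Abf1 and 31.3 ± 0.77% in WT Abf1 at -199 and 61.7 ± 0.050% in no Abf1 and 26.6 ± 0.29% in WT Abf1 at -190. The CpG in the Reb1 match at -167 had 79.2 ± 2.9% in no Abf1 and 80.0 ± 1.5% in WT Abf1, and the site at -139, next to PACE, 84.6 ± 0.024% in no Abf1 and 86.0 ± 0.50% in WT Abf1. In RPT5 the rise also lay upstream of the Reb1 match, with 45.2 ± 8.7% in no Abf1 and 20.7 ± 6.6% in WT Abf1 at -262 and 60.6 ± 10.0% in no Abf1 and 27.3 ± 0.47% in WT Abf1 at -249.

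**Figure D4:**
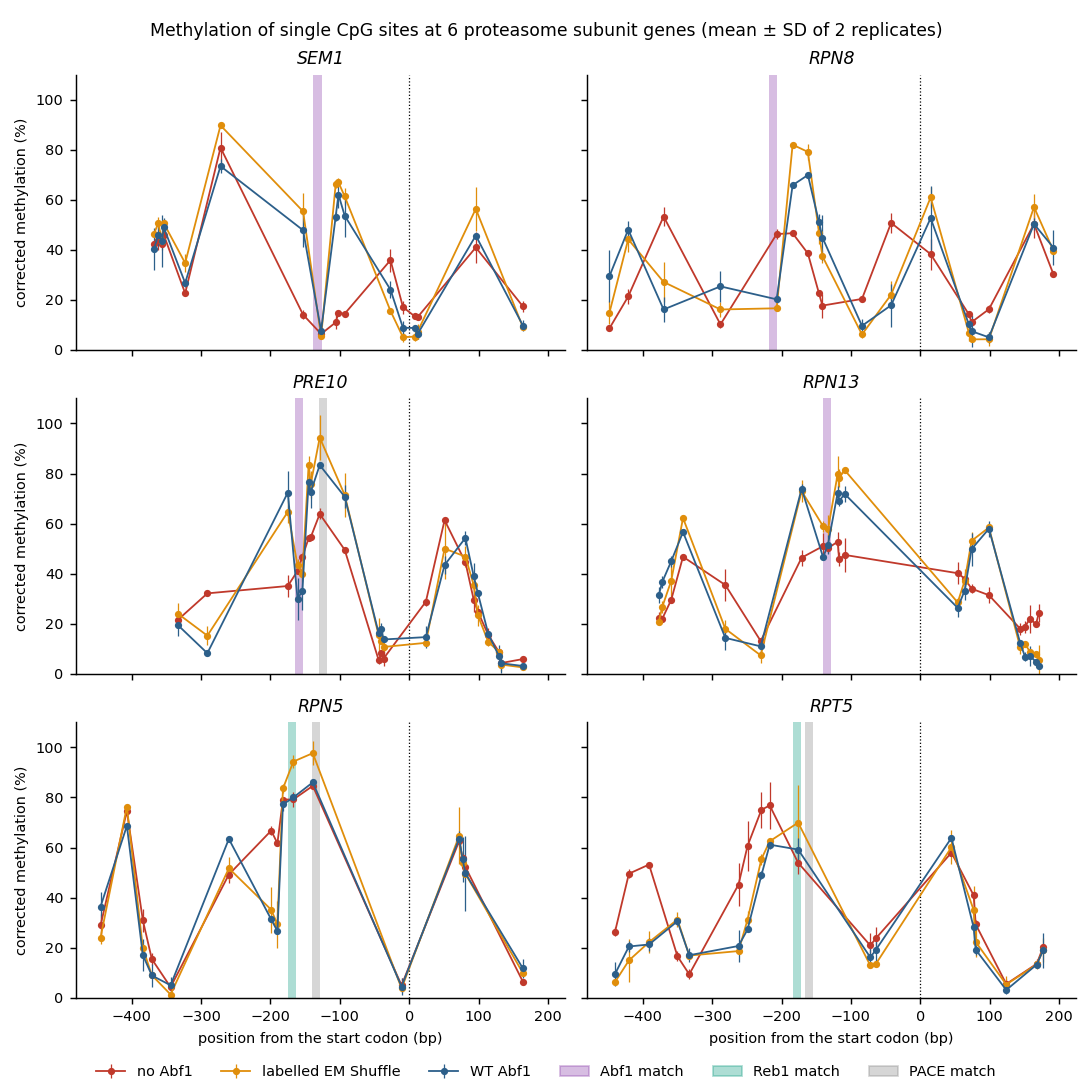
Corrected methylation (%) of single CpG sites (points, mean ± SD of 2 replicates) against position from the start codon (bp) at SEM1, RPN8, PRE10, RPN13, RPN5 and RPT5, with shaded Abf1, Reb1 and PACE matches. At SEM1 the no Abf1 line stays low beside the match (10.998% at -106, against 53.3% in WT Abf1), and at RPN5 it lies above WT Abf1 at -199 (66.8% against 31.3%).

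Several of these windows also serve the gene upstream. MPO1 shares 197 bp and all 4 CpG sites with SCL1 and so has the same log2 odds ratio (-0.97). The divergent partners YPI1 of RPN11 (-0.90), DCK1 of RPN13 (-0.43) and GPN2 of RPN8 (-0.99) were called lower with them, and NOP14, partner of RPN5 (0.74), and PET123, partner of PUP1 (0.80), were called higher. The measurement does not say to which gene of a pair such a promoter belongs.

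The Abf1 matches were then tested directly, by the calls 10 to 75 bp on each side of the match centre. Of the 15 members with enough CpG sites there, 10 had less methylated flanks in no Abf1 than in WT Abf1 and none had more. Of the 853 testable Abf1 matches of all genes, 59.4% were called, 461 lower and 46 higher. The median log2 odds ratio was -0.89 over the members and -0.55 over all. The flanks of SEM1 fell to 13.6 ± 0.30% in no Abf1, against 54.0 ± 5.8% in WT Abf1, and its log2 odds ratio of -2.89 ± 0.22 (SE, adjusted p = 1.35e-11) was the lowest of the 853. RPN8 followed with 26.3 ± 1.8% in no Abf1 and 51.3 ± 1.3% in WT Abf1 (-1.55 ± 0.17, SE, adjusted p = 9.34e-09). The other 8 called were SCL1 (-1.49), PRE10 (-1.43), RPN13 (-1.41), PRE8 (-1.37), RPN1 (-0.997), RPN11 (-0.89), PUP2 (-0.77) and PRE7 (-0.73). RPN1, PUP2 and PRE7 were thus called at the flanks but not over the whole promoter window.

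The 5 matches whose flanks were not called were those of PUP3, RPN6, RPN7, PUP1 and RPT1. At RPN6 the flanks had 80.5 ± 1.2% in no Abf1 and 84.9 ± 1.2% in WT Abf1. Those of RPT1, 379 bp upstream of its start codon, were covered in both, with 20.0 ± 1.5% in no Abf1 and 17.4 ± 0.14% in WT Abf1. The matches of RPT1, PUP1, PUP3, RPN7 and RPN6 lie 379, 260, 221, 203 and 173 bp upstream. All are farther out than every called match but that of RPN8 (212 bp). This order was seen after the calls were made, and a relation of position to the calls was not tested.

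The CpG that ends each match was more often higher than lower in no Abf1, in the members as over all genes. This test was chosen after the data had been examined. In no Abf1 it was called in 11 of 16 members, 9 higher and 2 lower than in WT Abf1. Of the 935 testable matches of all genes 62.6% were called, 528 higher and 57 lower. The median over the 16 was 48.9% in no Abf1 and 40.4% in WT Abf1. RPN8 had 52.2, 43.0, 43.7 and 46.2% in no Abf1 at this CpG, against 11.8, 31.4, 18.1 and 19.6% in WT Abf1 (1.85 ± 0.27, SE, adjusted p = 3.09e-05). PUP1 had 69.9, 75.6, 65.1 and 63.5% in no Abf1 and 22.2, 33.3, 34.7 and 42.3% in WT Abf1, the largest rise of the members (2.31 ± 0.28, SE, adjusted p = 9.62e-06). RPN6, with flanks that were not called, also rose here, with 82.6 ± 2.7% in no Abf1 and 69.1 ± 1.7% in WT Abf1 (1.39 ± 0.29, SE, adjusted p = 0.000573). The 2 lower ones were RPN11 (-1.06) and RPT1 (-0.86). Of the 10 members with fallen flanks, the end CpG rose in 5, RPN8, PRE10, RPN1, PUP2 and PRE7, fell in RPN11 and was not called in SEM1, SCL1, RPN13 and PRE8. The end CpG counts in the promoter window, and with the CpG sites inside Abf1 matches left out, RPN1 (-0.997) and PRE7 (-0.62) were called lower over their windows too.

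**Figure D5:**
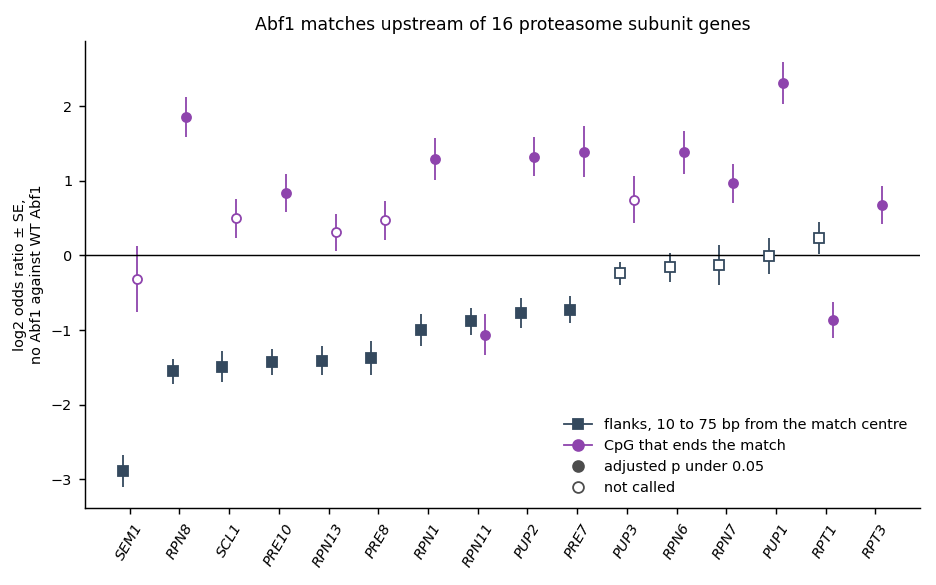
Log2 odds ratio (± SE) of no Abf1 against WT Abf1 at the Abf1 matches upstream of 16 proteasome genes, for the flanks (squares) and for the CpG that ends the match (circles), with filled symbols for adjusted p under 0.05. Flanks run upward from -2.89 at SEM1 to 0.23 at RPT1, and RPT3 has no testable flank.

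At the PACE matches, which Rpn4 recognises, 8 of 27 flanks were called in no Abf1 against WT Abf1, beside 26.4% of the 72 testable PACE matches of all genes. Lower were RPN11 (-1.01), PRE10 (-0.62), SCL1 (-0.49) and PRE3 (-0.48), and higher were RPN5 (1.26), RPT5 (0.90), RPT3 (0.55) and RPN7 (0.54). Where an Abf1 or Reb1 match lies close by, its flanks overlap these. The RPT3 value comes from the CpG sites within its Abf1 match. At the Reb1 matches 3 of 10 flanks were called, all higher in no Abf1, beside 12.5% of 457, 51 higher and 6 lower. RPT5 had 70.6 ± 8.9% in no Abf1, against 45.3 ± 1.6% in WT Abf1, and its log2 odds ratio of 1.71 ± 0.25 (SE, adjusted p = 1.1e-06) was the highest of the 457. RPN5 (1.29) and PUP1 (1.27) were the others. The flanks of the PUP1 Reb1 match also hold the CpG at -266 that ends its Abf1 match.

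Outside the promoter window few members were called. In the distal window, from the promoter window out to 500 bp upstream, there were 3 of 32, all higher in no Abf1. Of all genes 8.7% were called there, 285 higher and 232 lower. RPT5 had 33.4 ± 0.21% in no Abf1 and 19.8 ± 0.41% in WT Abf1 (1.03 ± 0.17, SE, adjusted p = 2.95e-05), and RPN1 (0.62) and PUP1 (0.59) were the others. The PUP1 distal window also holds the CpG that ends its Abf1 match. Around the start codon, from 50 bp upstream to 100 bp downstream, 3 of 32 were called, again all higher. Of all genes 5.01% were called there, 208 higher and 73 lower. PRE8 had 46.5 ± 1.7% in no Abf1 and 28.9 ± 1.9% in WT Abf1 (1.14 ± 0.15, SE, adjusted p = 1.12e-05), PRE7 had 25.8 ± 1.6% in no Abf1 and 14.0 ± 3.6% in WT Abf1 (1.14 ± 0.24, SE, adjusted p = 0.00482), and RPN1 was the other (0.76). PRE8 therefore fell over its promoter and rose over its start codon. Within the gene, beyond 100 bp and up to 500 bp downstream, 1 of 33 was called, RPN13 (0.66), beside 3.72% of all genes.

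No proteasome promoter was called in EM Shuffle against WT Abf1 by the quasi-binomial fit, beside 1.11% of all windows. At an unadjusted p under 0.05 there were 8 (12.5% of all windows), and limma with every CpG site weighted equally called 17 (21% of all windows), all higher in EM Shuffle. Without the offset of -0.28, the same quasi-binomial fit called 2 (9.27% of all windows), both lower in EM Shuffle. The direction for the set as a whole thus depends on the scaling. By construction, dividing by 0.871 raises highly methylated windows of EM Shuffle more than the offset on the odds scale does, and limma was run on the divided values. Non-overlapping libraries in the corrected percentages are therefore not read as changes here. The mean over the members was 65.0 ± 0.45% in EM Shuffle and 58.7 ± 1.7% in WT Abf1, and the median log2 odds ratio was 0.19, beside 0.06 over all windows. SEM1 had 42.6, 52.4, 46.9 and 56.6% in the EM Shuffle libraries, with a mean of 44.0 ± 5.2% in WT Abf1 (0.28 ± 0.18, SE, adjusted p = 0.557). RPN5 had 63.4, 75.8, 69.0 and 66.0% in EM Shuffle and averaged 60.8 ± 1.1% in WT Abf1 (0.27 ± 0.16, SE, adjusted p = 0.520). The largest difference of the members was at SCL1, with 67.2, 75.4, 72.8 and 79.3% in EM Shuffle and 58.8 ± 5.2% in WT Abf1 (0.66 ± 0.20, SE, adjusted p = 0.118), and the lowest at PRE3, with 49.7, 47.0, 42.2 and 51.1% in EM Shuffle and 54.1 ± 4.3% in WT Abf1 (-0.45 ± 0.14, SE, adjusted p = 0.132). RPT1, on the chromosome with raised coverage in EM Shuffle replicate 2, had 96.4, 100.1, 93.7 and 94.4% in EM Shuffle and 83.8, 78.0, 79.9 and 82.1% in WT Abf1 (adjusted p = 0.355), with 76.0, 80.2, 77.7 and 76.3% in no Abf1, and the part of that coverage in the values was not tested.

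The Abf1 matches gave a like picture. None of the 15 member flanks was called in EM Shuffle against WT Abf1 by the quasi-binomial fit (3.05% of 853 were). Of the CpGs that end a match, 1 of 16 was called (4.28% of 935), that of PUP1, with 62.8, 52.8, 68.9 and 48.7% in EM Shuffle, against 22.2, 33.3, 34.7 and 42.3% in WT Abf1 (1.30 ± 0.31, SE, adjusted p = 0.0312). In no Abf1 this CpG had 69.9, 75.6, 65.1 and 63.5%. At the single sites described above, SEM1 had 66.1 ± 1.3% in EM Shuffle at -106 and RPN8 79.1 ± 3.3% at -162, where WT Abf1 had 53.3% and 69.9%. RPN5 at -199 had 35.2 ± 9.2% and RPT5 at -249 31.2 ± 3.4% in EM Shuffle, beside 31.3% and 27.3% in WT Abf1. All 4 EM Shuffle means lay nearer to WT Abf1 than to no Abf1. These sites were chosen for their difference between no Abf1 and WT Abf1, and the EM Shuffle means are divided by 0.871. The nearness is therefore a description and no evidence on EM Shuffle.

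Set against no Abf1, the EM Shuffle libraries differed at 11 of the 33 promoters, 9 higher and 2 lower. Of all windows 11.5% were called, 8.38% higher and 3.15% lower. Without the offset of -0.36 there were 5 higher and 9 lower (35.2% of all windows called). This comparison shares the no Abf1 libraries with the first, so its calls at the same genes are no separate evidence. SEM1 averaged 49.7 ± 3.0% in EM Shuffle and 11.98 ± 0.019% in no Abf1 (2.80 ± 0.20, SE, adjusted p = 6.85e-10), and SCL1 73.7 ± 3.4% in EM Shuffle and 41.4 ± 3.1% in no Abf1 (1.63 ± 0.19, SE, adjusted p = 9.94e-07). In RPN13 the EM Shuffle libraries had 61.9, 61.4, 65.3 and 57.7% (0.82), in PRE10 62.4, 68.8, 73.8 and 65.0% (0.75), in RPN8 44.5, 39.6, 39.9 and 47.2% (0.68), in RPN11 60.7, 63.7, 63.3 and 67.7% (0.56) and in PRE8 61.8, 67.3, 60.9 and 67.4% (0.48), with the log2 odds ratio against no Abf1 in parentheses. All 7 of these genes were called lower in no Abf1 against WT Abf1.

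A further 2 promoters were called higher in EM Shuffle than in no Abf1. RPT2, an ATPase gene that helps to open the gate of the core, had 69.3, 61.5, 64.9 and 74.7% in EM Shuffle, against 48.6, 52.5, 53.8 and 50.7% in no Abf1 (0.65 ± 0.11, SE, adjusted p = 0.000177), with 57.2, 57.6, 53.8 and 61.7% in WT Abf1. RPN1 had 63.4, 57.0, 52.8 and 60.0% in EM Shuffle and 46.5 ± 0.52% in no Abf1 (0.58 ± 0.18, SE, adjusted p = 0.0370). The lower ones were RPT5, with 39.0, 36.3, 42.3 and 39.4% in EM Shuffle and 51.2 ± 7.3% in no Abf1 (-0.80 ± 0.18, SE, adjusted p = 0.00294), and RPN5, with 68.5 ± 1.5% in EM Shuffle and 74.5 ± 0.61% in no Abf1 (-0.83 ± 0.16, SE, adjusted p = 0.000546). Both are the promoters with the highest log2 odds ratio in no Abf1 against WT Abf1. Without EM Shuffle replicate 2 the count was 7 (4.45% of all windows), and RPN8 (0.59), RPN11 (0.45), PRE8 (0.45) and RPN1 (0.60) were not called. RPT5 was not called without no Abf1 replicate 1 (-0.41) or EM Shuffle replicate 1 (-0.71).

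Around the motif matches, 11 of 15 Abf1 flanks were higher in EM Shuffle than in no Abf1 and none lower. Over all genes 59.9% of 853 were called, 478 higher and 33 lower. At SEM1 they had 62.1 ± 3.2% in EM Shuffle and 13.6 ± 0.30% in no Abf1. The end CpG was called in 7 of 16, 1 higher and 6 lower (52.5% of 935 were called, 129 higher and 362 lower). RPN8 had the largest difference there, with 16.6 ± 0.99% in EM Shuffle and 46.3 ± 1.9% in no Abf1 (-1.94 ± 0.27, SE, adjusted p = 6.09e-05). Farther out, RPT5 was lower in the distal window (-1.13, 8.33% of all genes called) and PRE8 around its start codon (-0.72, 3.33% of all genes called).

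The EM Shuffle values of 9 further members complete the picture. PUP1 had 72.8, 70.2, 66.7 and 72.5%, PRE1 59.8, 64.5, 57.5 and 64.9% and RPT3 62.9, 66.4, 71.5 and 65.0% in the EM Shuffle libraries. PUP2 had 40.3, 35.9, 32.5 and 42.1%, PUP3 52.4, 56.0, 45.2 and 55.5% and PRE7 50.3, 50.9, 50.5 and 55.0%. The lid genes RPN6, with 92.9, 93.7, 89.3 and 93.1%, and RPN7, with 51.2, 56.0, 68.6 and 59.6%, and the receptor gene RPN10, with 31.5, 34.6, 38.5 and 35.6%, were the last. RPN10 also had 36.1, 35.4, 35.5 and 35.3% in no Abf1, and the libraries of its 3 constructs overlapped. None of these 9 was called in EM Shuffle against no Abf1.

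The core and regulatory particle promoters had similar means. The mean over the 14 core promoters was 55.8 ± 0.17% in no Abf1, 64.0 ± 0.50% in EM Shuffle and 58.9 ± 2.7% in WT Abf1. Over the 19 regulatory promoters it was 56.1 ± 0.45% in no Abf1, 65.7 ± 1.1% in EM Shuffle and 58.7 ± 1.0% in WT Abf1. In no Abf1 the difference from WT Abf1 was -3.01 points in the core, where the WT Abf1 replicates had an SD of 2.7 points, and -2.54 points in the regulatory particle, where the SD was 1.0 points. Without the authors' factor these differences were -0.615 and -0.130 points. Leaving out a WT Abf1 replicate moved the core value as well, to -1.13 points without replicate 1 and -4.90 without replicate 2. Calls in no Abf1 against WT Abf1 were 6 of 14 core genes, 2 higher and 4 lower, and 7 of 19 regulatory genes, 3 higher and 4 lower. Of all windows 11.6% were called, 4.11% higher and 7.51% lower. By subcomplex, the alpha ring averaged 55.3 ± 0.12% in no Abf1 and 61.1 ± 3.8% in WT Abf1, the lid 56.7 ± 0.25% in no Abf1 and 61.0 ± 1.6% in WT Abf1, and the ATPase ring 59.1 ± 1.5% in no Abf1 and 57.1 ± 0.095% in WT Abf1. The non-ATPase genes of the base averaged 50.4 ± 0.48% in no Abf1 and 55.7 ± 1.3% in WT Abf1, and the beta ring, with little difference, 56.4 ± 0.45% in no Abf1 and 56.6 ± 1.5% in WT Abf1. No test was made over the members as a set.

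Between the incubation times, the mean over the members increased by 0.526 to 2.42 points, 4 h against 3 h, in the 6 preparations, and that over all windows by 1.25 to 2.23 points.

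The other 11 members, PRE2, PRE4, PRE5, PRE6, PRE9, RPN2, RPN3, RPN9, RPN12, RPT4 and RPT6, were not called in any comparison. They include the gene for the subunit with chymotrypsin-like activity (PRE2), the large base scaffold (RPN2) and the lid genes RPN3, RPN9 and RPN12. Their means ranged over 51.5 to 80.0% in no Abf1, 54.8 to 90.2% in EM Shuffle and 48.8 to 81.6% in WT Abf1. Log2 odds ratios were -0.20 to 0.40 in no Abf1 against WT Abf1, with a lowest adjusted p of 0.329.

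The 25 other genes of the pathway included RPN4, assembly chaperones, ubiquitin genes and shuttle factors. Of these, 1 was called in no Abf1 against WT Abf1, beside 11.6% of all windows. It was UBI4, which encodes polyubiquitin (54.6% in no Abf1 and 45.5% in WT Abf1, 0.57 ± 0.15, SE, adjusted p = 0.00913). In EM Shuffle 1 was called against WT Abf1 (1.11% of all windows) and 2 against no Abf1 (11.5% of all windows). TMA17, an assembly chaperone gene, was lower in EM Shuffle than in WT Abf1 (44.2, 43.2, 46.0 and 56.1% in EM Shuffle, against 61.3, 65.5, 64.7 and 60.0% in WT Abf1, -1.01 ± 0.14, SE, adjusted p = 9.06e-05) and than in no Abf1 (-0.74). UBP6, a deubiquitinase gene, was lower in EM Shuffle than in no Abf1 (17.3% in EM Shuffle and 30.6% in no Abf1, -0.98 ± 0.22, SE, adjusted p = 0.00370). RPN4 itself was not called in any comparison.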

How the data were processed

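The 12 ODM-seq libraries of Saccharomyces cerevisiae comprised 4 for each of 3 constructs. The authors called 5mC from PromethION reads with Dorado, aligned them to sacCer3 (R64) and summarised calls with modkit. Minimap2 2.17, SAMtools 1.9 and 1.15 and R 4.2.0 are named in the submitters' processing notes. The deposited tables give for each CpG the count of calls and the methylated fraction, which the authors divided by a factor, the ratio of the construct's genome average to that of WT Abf1. Methylated calls were recovered as the rounded product of fraction, factor and coverage, which was whole at 100% of positions in every library within the rounding of the deposited fractions. The resulting percentages are corrected by the factor, and nuclear totals were 13253872 to 37756743 calls, which limits single sites (median 32 to 94 calls) more than windows.

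Sites with at least 5 calls in every library were kept (353646, 99.87%). Calls were summed over the sites of a window (at least 2 sites), over 3 h and 4 h aliquots of a preparation, with a pseudocount of 0.5 per replicate, and fitted for all genes by a quasi-binomial logistic model with construct and an offset of the construct's genome average on the logit scale. Dispersions were moderated with limma 3.58.1 squeezeVar in R 4.3.3. Tests were two-sided, p-values were adjusted by the Benjamini-Hochberg method within each comparison over all windows, and adjusted p under 0.05 was called. Motifs were searched on both strands, with match centres from 50 to 500 bp before the start codon. Tables were handled in Python 3.11.15 with pandas 2.3.3 and numpy 2.4.6. The fitting code was tested on simulated data.

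Replicates were independent transformants of 1 strain clone. Replicate numbers were not used as pairs in the main fit. Deviations of equally numbered replicates correlated at -0.02, 0.01 and 0.01 over windows in the 3 pairs of constructs. No library pair was a duplicate (mean squared difference 1.65 to 6.38 times counting error over 66 pairs).

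The members and lists were chosen with earlier results of these data known. Values in every library are given for members called in any comparison or with an Abf1 match within 500 bp, and for those with the highest and lowest WT Abf1 level (22 in all). Alternatives were no offset, each incubation time alone, coverage minimums of 10 and 20, windows moved 50 bp toward or away from the gene, CpG sites in Abf1 matches left out, limma with equal site weights, 2 constructs per fit, a replicate block, each replicate left out, flanks to 100 bp and a stricter Abf1 consensus.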

Additional observations from a re-analysis of the deposited data

Results flagged for a closer look

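In 4 of the 66 groups of 4 libraries examined, 1 library stood apart from the other 3 of its construct by more than Dixon's 95% limit, which chance does in about 1 in 20 groups. PRE7 had 55.0% in EM Shuffle replicate 2 at 4 h, with 50.9% in the nearest library, and 44.5% in WT Abf1 replicate 2 at 3 h, with 51.7% in the nearest. RPN6 had 85.1% in WT Abf1 replicate 1 at 4 h, with 80.8% in the nearest. RPN8 had 35.6% in WT Abf1 replicate 2 at 3 h, with 44.2% in the nearest, and is the one of these windows that was called in no Abf1 against WT Abf1.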

How the results depend on the processing

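For no Abf1 against WT Abf1, 13 member promoters were called (11.6% of all windows). With 3 h aliquots alone there were 7 (7.08% of all windows), with 4 h alone 7 (5.41%) and with limma and equal site weights 6 (4.23%). With the window moved 50 bp upstream there were 8. Leaving out each replicate gave 8 to 11. For EM Shuffle against WT Abf1 the 0 calls (1.11% of all windows) became 2 with no offset (9.27%) and 17 with limma (21%). They stayed 0 when replicates were left out. For EM Shuffle against no Abf1 the 11 calls (11.5% of all windows) became 6 with 3 h alone and 21 with limma. They were 7 to 11 when replicates were left out. The 10 Abf1 flanks called in no Abf1 were 10 under every alternative except the stricter consensus (8 of 12). In this section, counts without a share of all windows or matches are not read as results about the members. Of the 24 called log2 odds ratios of single members, 320 of 404 refits kept the call, 84 lost it and 0 changed sign. RPT3, PRE1, PRE3, PUP1 and PRE8 in no Abf1 against WT Abf1 and RPN1 and PRE8 in EM Shuffle against no Abf1 lost theirs in 6 or more refits each. Of the 42 that were not called, 26 of 706 refits gave a call and 1 turned round, PRE7 in EM Shuffle against no Abf1, at -0.31 with no offset.

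The replicate number as a block gave 12, 0 and 10 member calls in no Abf1 against WT Abf1, EM Shuffle against WT Abf1 and EM Shuffle against no Abf1, and 10 Abf1 flanks. The pairing check gave correlations near 0 over windows. It cannot show whether equally numbered replicates were grown or processed together, since a shift common to all windows drops out of it.

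Differences of the particle means, in points, moved with the processing as follows. The core in no Abf1 against WT Abf1 (-3.01) was -0.615 with no offset, -5.95 without CpG sites in Abf1 matches, and -4.90 to -1.13 with a replicate left out. Against WT Abf1, EM Shuffle (5.19) gave -3.06 with no offset and 3.30 to 7.07 with a replicate left out. EM Shuffle against no Abf1 (8.20) gave -2.45 with no offset, 6.82 at 3 h, 9.58 at 4 h, 6.68 with the window moved 50 bp upstream, 10.4 without sites in matches, 9.03 with equal site weights and 7.84 to 8.56 with a replicate left out. The regulatory particle in no Abf1 against WT Abf1 (-2.54) was -0.130 with no offset, -5.20 without sites in matches and -3.25 to -1.83 with a replicate left out. For EM Shuffle against WT Abf1 (7.08) it was -1.39 with no offset, 4.60 with the window moved 50 bp toward the gene and 6.27 to 7.89 with a replicate left out. For EM Shuffle against no Abf1 (9.62) it was -1.26 with no offset, 7.65 and 7.33 with the window moved 50 bp toward and away from the gene, 11.99 without sites in matches and 8.81 to 10.4 with a replicate left out. The no-offset values lack the genome-average correction by construction, and the cause of the other shifts was not tested.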
